A study of Rattus norvegicus with 24 samples.

Results

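Restraint of rats was followed in the hypothalamus by differences in 10 genes that lie outside the usual lists of stress-response genes: Acer2, Plekhf1, Spsb1, Gpatch4, Arrdc2, Trib2, Map3k1, Plekha5, Ier5 and Rcan2. They are 10 of the 14217 genes measured and are read by 23 of the 31042 rat probe sets (short-oligonucleotide groups that each report 1 transcript). The genes were chosen by their differences in array signal between restrained and control rats, and every probe set annotated to them is accounted for. Their restraint values therefore describe how they were chosen, and calls counted there support nothing about them. P-values for single genes are given in the odour comparison, which the choice did not use but which sets the linalool rats against the same 6 stress rats.

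The 18 animals were male Wistar rats, an outbred laboratory strain, 7 weeks old, and all had 1 week to get used to the housing. A group of 6 was restrained for 2 h while (R,S)-linalool, a scented terpene alcohol of lavender and other plants, evaporated from 20 µL into a 40 L box. Another 6 were restrained for 2 h without the odour, and 6 were controls. Each array measured RNA from the hypothalamic block of 1 rat, so p-values are over animals. They also carry any difference in array processing between the groups. The control and stress arrays were normalized together as one set, and the same stress rats were normalized a second time with the linalool rats. Control and linalool arrays were never placed on a common scale, and all signals below are log2 values within 1 set. In such bulk tissue fewer cells of a type and less RNA per cell cannot be told apart.

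Restraint raises circulating glucocorticoids, which enter brain cells and act through a receptor that binds DNA, while neuronal activity works through second messengers such as cyclic AMP. The proteins of the 10 genes work in membranes, protein turnover, signalling and the nucleus, and their place relative to these signals was not tested. Acer2 encodes a Golgi ceramidase that releases sphingosine from ceramide. Plekhf1 and Plekha5 encode proteins with lipid-binding PH domains. Spsb1 encodes an adaptor that brings substrates to a ubiquitin ligase, and Arrdc2 an alpha-arrestin, a class of adaptors for membrane protein ubiquitination. Trib2 is a pseudokinase scaffold that helps degrade C/EBP transcription factors. Map3k1 is a kinase upstream of the JNK pathway, and Rcan2 restrains the calcium-dependent phosphatase calcineurin. Gpatch4 is a nucleolar G-patch protein, and Ier5 belongs to the immediate early response family.

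All 10 genes have a promoter in the RefSeq table of the rat build GRCr8, which gives 250 bases before the annotated start and 50 after it. The 3 printed here are those that hold one of the letter patterns linked to the glucocorticoid receptor or to cyclic AMP signalling. Each runs 5′ to 3′ on the gene's own strand, and capitals mark every match of the 5 patterns named after the sequences, searched on both strands (CCAAT also reads as ATTGG).
Plekhf1: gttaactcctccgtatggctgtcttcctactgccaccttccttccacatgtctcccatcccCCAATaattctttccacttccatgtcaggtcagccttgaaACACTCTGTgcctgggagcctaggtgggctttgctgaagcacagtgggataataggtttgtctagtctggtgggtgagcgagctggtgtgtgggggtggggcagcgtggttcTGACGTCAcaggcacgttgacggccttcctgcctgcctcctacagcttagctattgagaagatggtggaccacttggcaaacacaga
Spsb1: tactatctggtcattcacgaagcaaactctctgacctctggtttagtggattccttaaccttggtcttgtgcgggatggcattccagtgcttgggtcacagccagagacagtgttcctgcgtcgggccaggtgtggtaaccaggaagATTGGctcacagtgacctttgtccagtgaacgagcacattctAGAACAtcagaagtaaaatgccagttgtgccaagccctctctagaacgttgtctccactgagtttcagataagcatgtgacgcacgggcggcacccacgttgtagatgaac
Ier5: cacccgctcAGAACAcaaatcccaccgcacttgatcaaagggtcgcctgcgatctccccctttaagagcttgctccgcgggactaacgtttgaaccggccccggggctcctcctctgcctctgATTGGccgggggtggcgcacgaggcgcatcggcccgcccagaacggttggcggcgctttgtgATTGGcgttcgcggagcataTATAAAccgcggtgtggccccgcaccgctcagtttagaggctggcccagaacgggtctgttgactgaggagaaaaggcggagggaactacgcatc

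Plekhf1 lies on the minus strand at chr1:100046768-100047067, Spsb1 on the minus strand at chr5:165654176-165654475 and Ier5 on the minus strand at chr13:69822493-69822792. AGAACA, one arm of the glucocorticoid receptor motif, begins at position -61 in Spsb1 and at position -241 in Ier5, counting from the start site. These are 2 of the 10 genes, and 20.7% of all 33469 promoters hold it. The two-armed core ACANNNTGT begins at position -149 in Plekhf1 and occurs in 6.86% of promoters. The cyclic AMP response element TGACGTCA begins at position -37 in Plekhf1 and occurs in 1.83%. CCAAT was present in 6 of the 10, namely Plekhf1, Spsb1, Gpatch4, Arrdc2, Ier5 and Rcan2, against 37.5% of all promoters. TATAAA was found at position -45 of Ier5 and occurs in 14.2%. The GC content of the 10 promoters lay between 50.7% (Spsb1) and 83.0% (Plekha5), with a median of 51.7% over all promoters. None of the searched letters were in the windows of Acer2, Trib2, Map3k1 or Plekha5. A match describes the sequence and is not a measured binding site.

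The tissue is hypothalamus by its label, and 18 of 20 hypothalamic marker genes were measured, 11 of them above the median of every array. Markers of neighbouring regions were at such levels too, 7 of 7 for thalamus and 5 of 7 for striatum, so these levels do not single out the hypothalamus. Column medians lay between 8.13 and 8.19 over the 24 columns. Most probe sets in these files varied extremely little: a residual SD (the spread of arrays around their group mean) under 0.01 was found for 80.9% of genes beside the controls and for 81% beside the linalool rats. Such genes are called compressed here. Their differences are given as multiples of the residual SD, and 2 groups of 6 then give a standard error of 0.577.

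After restraint 7 of the 10 genes were higher and 3 were lower, counting the probe set with the highest mean signal of each gene. All 10 passed the threshold of limma's moderated test (Benjamini-Hochberg adjusted p of 0.05) that 0.71% of all genes passed (0.485% higher and 0.225% lower), and in all 10 the 2 groups of arrays were fully separated, as in 1.86% of genes. Both counts follow from the choice of the genes and are read no further. The calls also depended on the arrays: with 1 array left out 5 to 10 of the 10 passed, and without controls 4, 5 and 6 none did (limma adjusted p of 0.0972 to 0.272). Calls fell over all genes too: of 14217 genes 101 passed with all arrays and 2 without those controls. That fit sets the stress rats against controls 1, 2 and 3 alone and is less precise. Lost precision and the part of the 3 controls left out were therefore not told apart. The count over all genes also varied with 1 array left out, as the last section gives. Ier5 passed in 1 of 12 fits with 1 array left out and Arrdc2 in 6 of 12. The plot of the 10 genes by array shows the separation.

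**Figure D1:**
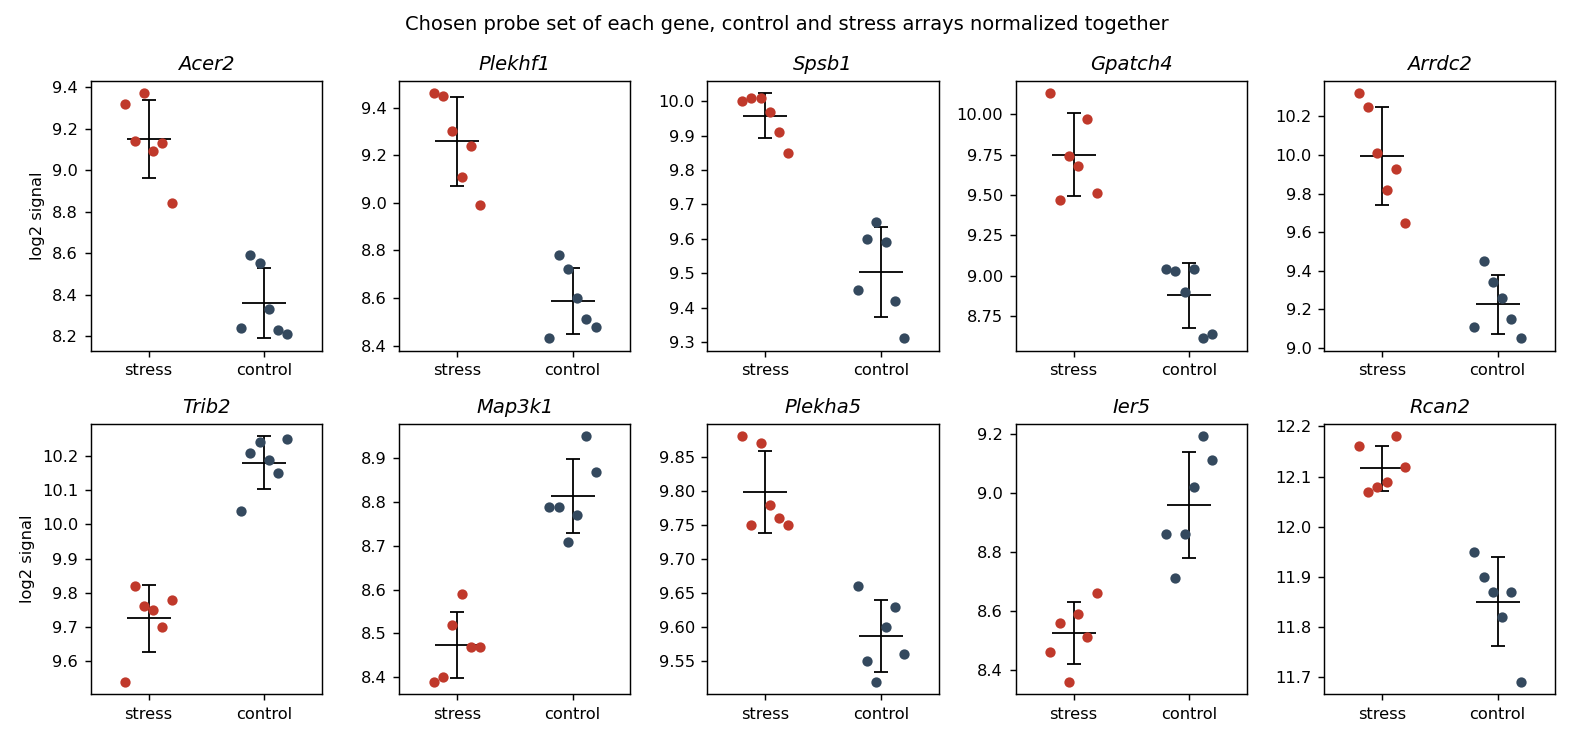
Log2 signal (vertical axis, its range set for each gene) of the chosen probe set in 6 stress and 6 control rats. Points are rats, horizontal bars are means and whiskers are 1 SD; the groups do not overlap in any panel, and Trib2, Map3k1 and Ier5 are the 3 genes lower after restraint.

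Among the genes of lipids and membranes, Acer2 was 1.73-fold higher. Its lowest, median and highest signals were 8.84, 9.14 and 9.37 in stress rats, against 8.21, 8.29 and 8.59 in controls. Every stress rat thus lay above the highest control, by at least 0.249, and the difference was 0.79 (SE 0.102). The second Acer2 probe set (1373302_at) gave nearly the same picture, with a difference of 0.81. Another (1379846_at) was compressed and stood 2.04 residual SDs higher.

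Plekhf1, whose protein carries a PH and a FYVE domain and sits on endosomes and lysosomes, has 1 probe set. Signals were 8.99, 9.27 and 9.46 (lowest, median, highest) in stress rats and 8.43, 8.55 and 8.78 in controls, a difference of 0.67 (SE 0.093) or 1.59-fold. Stress rats 1 and 2 were the highest and stress rat 6 the lowest of the restrained animals.

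Plekha5, the other PH-domain gene, showed the smallest difference of the 10. The stress rats had 9.75, 9.77 and 9.88, against 9.52, 9.58 and 9.66 in controls, a difference of 0.21 (SE 0.0319). The gap between the groups was 0.088, so the separation rested on narrow spreads (SD 0.0594 in stress rats and 0.053 in controls). Its other probe set (1375610_at) was compressed and differed by 0.04 residual SDs.

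Among the adaptors of protein turnover, Arrdc2 was 1.71-fold higher. Its signals were 9.65, 9.97 and 10.32 in stress rats and 9.05, 9.21 and 9.45 in controls, a difference of 0.77 (SE 0.119). The restrained rats were more spread out (SD 0.255) than the controls (SD 0.152), with stress rats 1 and 2 at the top.

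Spsb1 was higher on all 3 of its probe sets. On the chosen one the stress rats had 9.85, 9.98 and 10.01 and the controls 9.31, 9.52 and 9.65, a difference of 0.45 (SE 0.0591) or 1.37-fold. The other 2 probe sets differed by 0.40 (1379611_at) and 0.35 (1393805_at), and on both the groups overlapped. Stress rat 6 lay below its group there, at 9.18 and 8.77.

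Trib2, by contrast, was lower on both probe sets. The chosen one had 9.54, 9.75 and 9.82 in stress rats, against 10.04, 10.20 and 10.25 in controls, a difference of -0.46 (SE 0.0504). The highest restrained rat lay 0.221 below the lowest control. On the second probe set (1385124_at) the difference was -0.33, and the groups did not overlap either.

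Of the 2 signalling genes, Map3k1 was lower and Rcan2 higher. Map3k1 signals were 8.39, 8.47 and 8.59 in stress rats and 8.71, 8.79 and 8.95 in controls, a difference of -0.34 (SE 0.0452). Its second probe set (1368871_at) was also lower, with a difference of -0.14 and again no overlap. Rcan2 had 12.07, 12.11 and 12.18 in stress rats and 11.69, 11.87 and 11.95 in controls, a difference of 0.27 (SE 0.0405). On the other Rcan2 probe set (1374235_at) the difference was 0.33 with overlapping groups, and control 6 stood apart at 9.65.

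Gpatch4 differed most of the 10 genes on the log2 scale. Signals were 9.47, 9.71 and 10.13 in stress rats and 8.61, 8.97 and 9.04 in controls, a difference of 0.87 (SE 0.131) or 1.83-fold. Its other 3 probe sets differed by 0.66 (1382186_a_at), 0.56 (1382187_at) and 0.74 (1382188_at), and the groups overlapped on the first of these. Stress rats 1 and 5 were the 2 highest on all 4 probe sets.

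Ier5 was lower on its chosen probe set, with 8.36, 8.53 and 8.66 in stress rats, against 8.71, 8.94 and 9.19 in controls. The groups were 0.05 apart, the narrowest gap of the 10 genes, and the difference was -0.44 (SE 0.0838). The remaining 2 probe sets were compressed and pointed in opposite directions, at 0.77 (1375202_at) and -1.33 (1389882_at) residual SDs. Of the 23 probe sets, 15 had groups without overlap, against 1.78% of all probe sets, and 4 were compressed, as the plot of all probe sets shows.

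**Figure D2:**
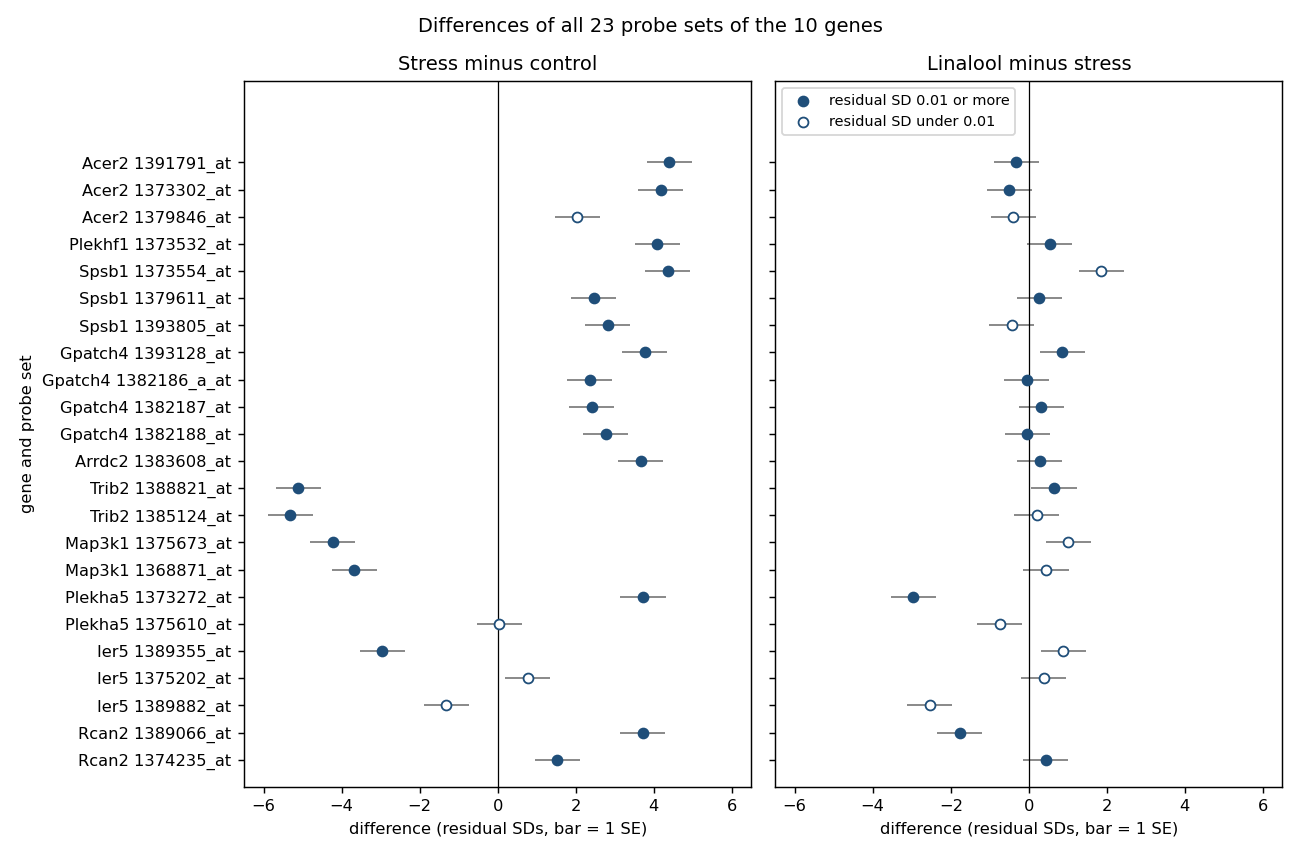
Differences of all 23 probe sets in residual SDs (horizontal axis), stress minus control on the left and linalool minus stress on the right; bars are 1 SE (0.577) and open circles mark a residual SD under 0.01. After restraint the filled points lie well away from 0 on both sides, while with linalool most lie near 0 and Plekha5 1373272_at stands at -2.96.

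The same animals tended to be extreme on several of the genes. Of the 7 genes higher after restraint, stress rat 1 was the highest restrained rat on 4 and stress rat 6 the lowest on 5. Control 6 was the lowest control on 4 of the 7. On the 3 genes lower after restraint, stress rat 1 was the lowest restrained rat on 2. The genes are thus not separate pieces of evidence about the 6 animals.

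Some cell-type marker scores differed between the groups or varied among the controls. On the meningeal score the stress rats lay within the range of the controls. The mean score of 14 meningeal and fibroblast markers, centred on the 12 arrays and in units of the residual SD, lay between -0.899 and -0.356 in stress rats and between -1.05 and 2.26 in controls, and controls 4, 5 and 6 held its 3 highest values; 11 of the 14 markers lay above every array median. The score of 12 neuronal markers lay between 0.15 and 0.735 in stress rats and between -0.81 and -0.306 in controls, with no overlap, and all 12 lay above every array median. The endothelial score, from 10 measured markers that all lay above every array median, lay between -1.56 and -0.105 in stress rats and between -0.668 and 1.47 in controls. Among these lists the endothelial genes Kdr (-0.64) and Slco1c1 (-0.25) passed the test, and in the other lists (hypothalamus, pericytes, astrocytes, oligodendrocytes and their precursors, microglia, blood, choroid plexus, pituitary, thalamus and striatum) the precursor marker Nkx2-2 (-0.39) did (limma adjusted p = 0.0302, 0.0492 and 0.0327). The part of the neuronal and endothelial markers in these results was not tested.

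With controls 4, 5 and 6 left out, the differences were 0.69 for Acer2, 0.76 for Gpatch4, 0.70 for Arrdc2, 0.61 for Plekhf1 and 0.39 for Spsb1. Trib2 differed by -0.44, Map3k1 by -0.29, Plekha5 by 0.22 and Rcan2 by 0.21. Since the groups were fully separated by the choice of the genes, leaving out arrays could not turn a sign. None of the 10 passed in this fit, nor with a meningeal covariate (limma adjusted p of 0.121 to 0.202). Over all genes 2 passed in this fit and none with that covariate, so the lost calls are not particular to the 10. Ier5 changed most in proportion, to -0.29 without these controls and to -0.27 with that covariate. Its signals were 9.02, 9.19 and 9.11 in those 3 controls and 8.86, 8.71 and 8.86 in controls 1, 2 and 3. The plot of differences under other choices of arrays shows all 10.

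**Figure D3:**
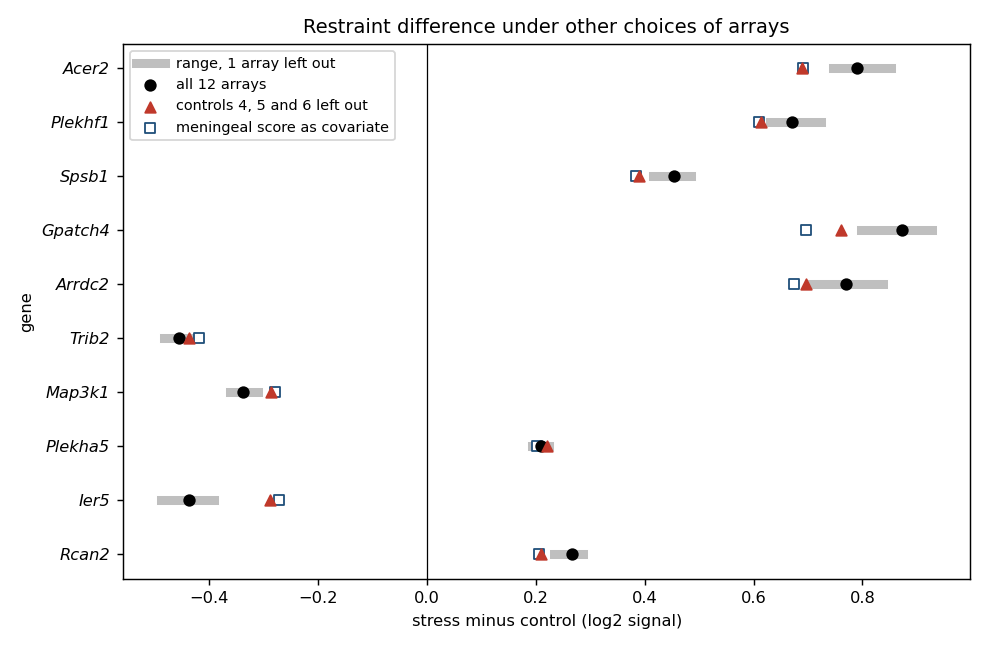
Stress minus control difference of each gene (horizontal axis, log2 signal) over all 12 arrays (circles), with controls 4, 5 and 6 left out (triangles) and with a covariate for the meningeal score (squares); grey bars span the fits that leave out 1 array. Since the groups do not overlap, leaving out arrays cannot carry a gene across 0, and Ier5 moves furthest in proportion, from -0.44 over all arrays to -0.27 with the covariate.

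Acer2 was taken from the higher and Trib2 from the lower genes. Within the groups of rats, Pearson's r of Acer2 with the other higher genes ran from 0.139 (Plekha5) to 0.841 (Plekhf1). That of Trib2 was 0.113 with Map3k1 and 0.188 with Ier5, so neither stands for all genes of its direction. The genes whose signals followed Acer2 and Trib2 most closely over the 12 arrays of the first set are named by r, as a description. Closest to Acer2 were Plekhf1 (r = 0.975), the zinc-finger transcription factor Klf9 (r = 0.968) and Spsb1 (r = 0.968). Over the 12 linalool and stress arrays of the second set the same pairs gave 0.402, 0.778 and 0.283. The Spsb1 probe set used here was compressed in that set. Closest to Trib2 were Tnfaip3 (r = 0.957), which encodes the ubiquitin-editing enzyme A20, the glycolytic regulator Pfkfb3 (r = 0.929) and Tnfrsf11b (r = 0.926), which encodes osteoprotegerin. Their values in the second set were 0.541, 0.577 and 0.681. The first set holds both restrained and control rats, whereas all rats of the second were restrained. Values of r over the first set therefore also carry the group difference by which Acer2, Trib2, Plekhf1 and Spsb1 were chosen.

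Of 151 measured relatives of the 10 genes, 1 passed after restraint (0.662%), close to the 0.71% of all genes, and 121 were compressed. In the ceramide and sphingosine list 1 of 33 measured genes was higher, Acer2 itself. None of the other 10 measured alpha-arrestins, arrestins and partner ligases passed, and none of the other 19 genes of the MAP3K and JNK list, the other 16 of the calcineurin list, the other 15 of the SPRY and SOCS box list, the other 7 of the immediate early response list or the other 20 G-patch and ribosome biogenesis genes. In the PLEKH family the 2 genes higher of 23 were Plekhf1 and Plekha5. The only call that was not one of the 10 genes came from the list of Tribbles proteins and partners: Foxo3, a forkhead transcription factor, rose by 0.22 (limma adjusted p = 0.0392), beside the lower Trib2, of 12 measured. Foxo3 passed in 3 of 12 fits with 1 array left out. Medians of the 9 lists lay between -0.762 (immediate early response) and 0.241 (SPRY and SOCS box) residual SDs, against 0.11 over all genes.

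The second comparison asked what differed when linalool was inhaled during the restraint. It shares the 6 stress rats with the first, so a chance deviation of these rats enters both with opposite signs. The 10 genes were chosen partly by the signals of these rats, which favours linalool differences opposite to those after restraint. The p-values of single genes below, limma and exact, do not allow for this. Here 29.7% of all genes passed the threshold (20% higher and 9.71% lower), and control probe sets of the array passed as well: 19 of 45 for bacterial or phage sequences, which rats do not make, 15 higher and 4 lower, and 8 of 12 for rat sequences, 2 higher and 6 lower. In the first set 1 of these 57 control probe sets passed. Differences between the linalool and stress arrays from their processing and from the odour therefore cannot be told apart. Of the 10 genes 3 passed, a share of 30% close to that background and therefore not a result about these genes, and over all their probe sets 4 of 23 passed (17.4%, against 25% of all probe sets).

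Plekha5 fell most clearly with linalool. Signals of the 6 linalool rats were 9.32, 9.44 and 9.76 (lowest, median, highest), against 9.77, 9.81 and 9.96 in the stress rats. The groups did not overlap, as in 14.2% of genes, though the highest linalool rat and the lowest stress rat were only 0.01 apart. The difference was -0.36 (SE 0.0694, limma adjusted p = 0.00353), and a two-sided exact permutation test over the 12 arrays gave p = 0.00216, the smallest 6 against 6 can give. Leaving out any 1 array kept the call in 12 of 12 fits, with differences of -0.42 to -0.33. Its compressed probe set differed by -0.74 residual SDs and did not pass. Neuronal markers differed in the same arrays, with scores between -1.22 and 0.498 in linalool rats and between 0.162 and 0.83 in stress rats, and 2 of 12 fell, Syt1 (-0.34) and Rbfox3 (-0.27; limma adjusted p = 0.00271 and 0.00519). Thalamus markers differed as well, with scores between -1.55 and 0.22 in linalool rats and between -0.983 and 1.84 in stress rats and a list median of -1.33 residual SDs, and 2 of 7 fell, Rora (-0.69) and Ntng1 (-0.67; limma adjusted p = 0.0122 and 0.0163). Over all genes 29.7% passed and 9.71% passed as lower, so these counts are not read as results about neurons or thalamus. Every other marker list except striatum held calls too. For hypothalamus 3 of 18 were higher and none lower, and for blood 2 of 5 were higher and none lower. Astrocyte and oligodendrocyte markers each had 2 higher and 1 lower of 11, and the precursor and pituitary lists each had 1 lower. The part of any marker list in the Plekha5 result was not tested.

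Rcan2 also fell, by less. Its signals were 11.96, 12.06 and 12.17 in linalool rats and 12.11, 12.17 and 12.23 in stress rats, so the groups overlapped. The difference was -0.11 (SE 0.0349, limma adjusted p = 0.0384; two-sided exact permutation p = 0.0195). When 1 array was left out it passed in 4 of 12 fits, and the second Rcan2 probe set differed by 0.02 with no call. The mean of both probe sets differed by -0.04 (limma adjusted p = 0.283), and after median centring the adjusted p was 0.0601.

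Spsb1 passed on a compressed probe set, 1.86 residual SDs higher in linalool rats (limma adjusted p = 0.0324). On the deposited scale this was a difference of 0.000254, which turned to -0.0188 after quantile normalization (adjusted p = 0.0091) and to -0.00426 after median centring (adjusted p = 0.0825). Its uncompressed probe set (1379611_at) had 9.37, 9.53 and 9.68 in linalool rats and 9.14, 9.53 and 9.61 in stress rats, a difference of 0.04 with a 95% confidence interval of -0.14 to 0.22. The remaining probe set (1393805_at), compressed as well, stood at -0.44 residual SDs. No direction with linalool is therefore given for Spsb1.

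Acer2 and Gpatch4 did not pass with linalool. Acer2 had 8.84, 9.14 and 9.18 in linalool rats and 8.86, 9.09 and 9.31 in stress rats, a difference of -0.05 (95% confidence interval -0.25 to 0.14, limma adjusted p = 0.705). Its probe set 1373302_at differed by -0.12, and the compressed 1379846_at stood at -0.40 residual SDs. Gpatch4 had 9.79, 9.89 and 10.04 in linalool rats and 9.47, 9.70 and 10.10 in stress rats, a difference of 0.17 (interval -0.08 to 0.41, limma adjusted p = 0.29). Its other probe sets differed by -0.01 (1382186_a_at), 0.07 (1382187_at) and -0.01 (1382188_at), so they did not share this difference. Both intervals, of the chosen probe sets, include 0 and leave room for differences in either direction.

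For Arrdc2 the signals were 9.81, 9.98 and 10.17 in linalool rats and 9.58, 9.91 and 10.23 in stress rats, a difference of 0.06 (interval -0.20 to 0.31). Plekhf1 had 9.12, 9.26 and 9.50 in linalool rats and 8.88, 9.19 and 9.41 in stress rats, a difference of 0.10 (interval -0.14 to 0.35). Trib2 had 9.77, 9.81 and 10.00 in linalool rats and 9.63, 9.81 and 9.85 in stress rats, a difference of 0.05 (interval -0.05 to 0.16). Its other probe set (1385124_at) was compressed and stood 0.20 residual SDs higher. None of the 3 passed (limma adjusted p = 0.746, 0.517 and 0.427), and their groups overlapped throughout.

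**Figure D4:**
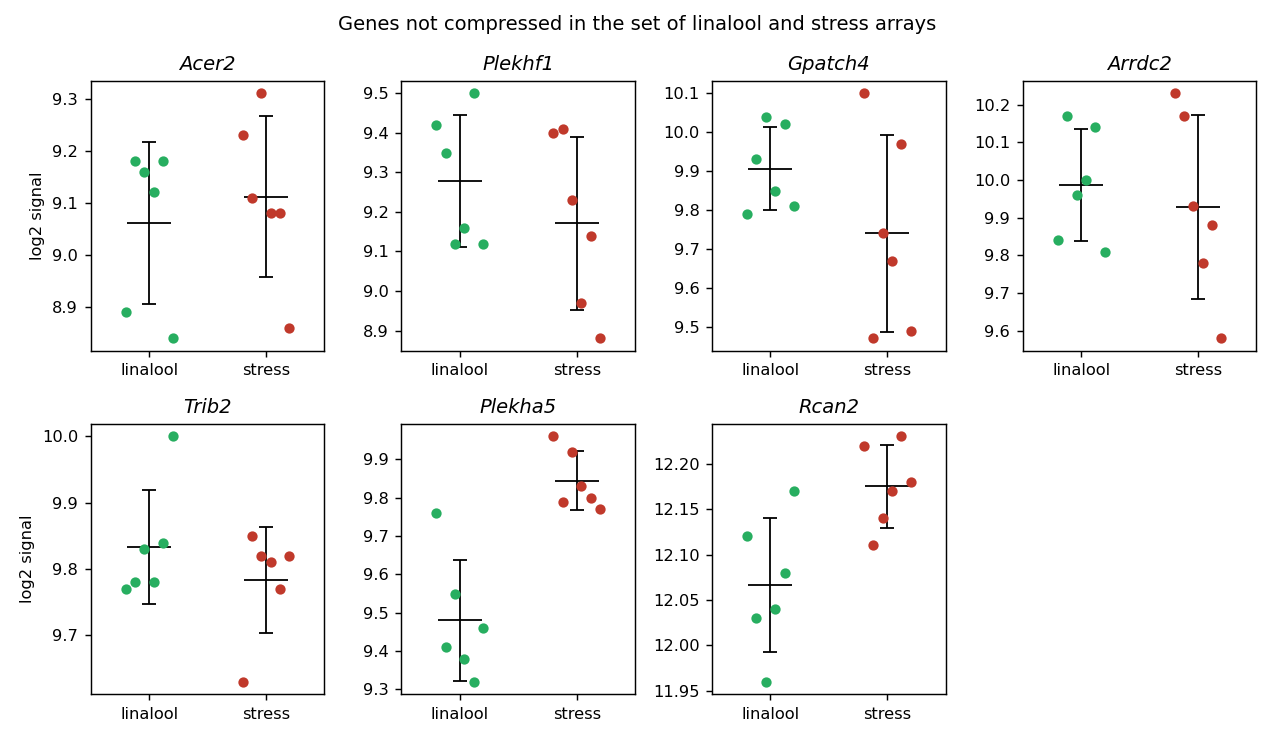
Log2 signal (vertical axis, its range set for each gene) of the 7 genes whose chosen probe set was not compressed in the second set, in 6 linalool and 6 stress rats; points are rats, horizontal bars are means and whiskers are 1 SD. Plekha5 is the only panel without overlap, with linalool rats at 9.32 to 9.76 and stress rats at 9.77 to 9.96.

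Map3k1 and Ier5 could not be read on the log2 scale with linalool, since their chosen probe sets were compressed there. They stood 1.01 and 0.88 residual SDs higher in linalool rats and did not pass (limma adjusted p = 0.211 and 0.28). The other Map3k1 probe set (1368871_at), compressed too, stood 0.44 residual SDs higher. Another Ier5 probe set (1389882_at), also compressed, stood at -2.54 residual SDs (linalool minus stress) with no overlap, and passed when every probe set was tested (limma adjusted p = 0.0094). The remaining Ier5 probe set (1375202_at) was compressed and stood at 0.39. With 2 probe sets above 0 and 1 below, Ier5 had no common direction.

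The same 6 stress rats show how far the scale of a gene depended on the arrays it was normalized with. Of the 23 probe sets, 13 were compressed in neither set, 4 in both and 6 only in the second, against 10.2%, 77.4% and 6.27% of all probe sets, and the genes had been chosen for clear differences in the first. In those 6, which belong to Spsb1, Map3k1, Trib2 and Ier5, the SD of the same rats was 235 to 890 times smaller in the second set. For the chosen Map3k1 probe set it was 0.0731 with the controls and 0.00016 with the linalool rats. Relative differences among the rats were largely kept, with Pearson's r between the sets of 0.846 to 0.985 over 6 rats. For the 13 compressed in neither it was 0.967 to 1.0. For the 6, log2 differences in the second set cannot be set beside those of the first.

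**Figure D5:**
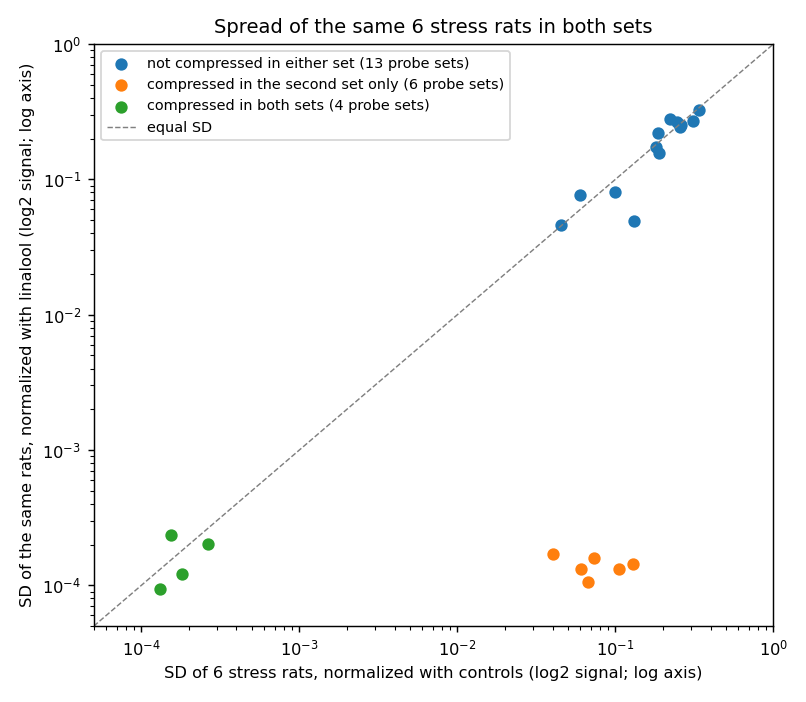
SD of the same 6 stress rats when normalized with controls (horizontal log axis) and with linalool rats (vertical log axis), in log2 signal, 1 point per probe set; the dashed line marks equal SD. Most points follow the line, and 6 probe sets of Spsb1, Map3k1, Trib2 and Ier5 lie far below it.

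Counts of calls in the 9 lists of related genes with linalool stand beside the same 29.7% of all genes. Here they include the 10 genes themselves: Plekha5 and Rcan2 count as lower. Spsb1 counts as higher, on its deposited values only. The MAP3K and JNK list had 1 gene higher and 8 lower of 20 measured, with a median of -1.18 residual SDs against 0.223 over all genes. Its scaffold Mapk8ip3, which links JNK to vesicle transport, fell by 0.56 (limma adjusted p = 0.000998) without overlap, and the scaffold Mapk8ip1 and the transcription factor Atf2 stood at -3.51 and -2.90 residual SDs. After quantile normalization none was higher and 8 passed in all, and after median centring 2 passed, both lower. The kinase Map3k4, the 1 gene higher (4.23 residual SDs), turned lower under both rescalings.

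The G-patch and ribosome biogenesis list had 6 genes higher and none lower of 21. The biogenesis factors Pes1 and Nolc1 rose by 0.19 and 0.21 (limma adjusted p = 9.34e-05 and 0.000103), without overlap and under both rescalings. Nop16 and Coil, 3.75 and 3.21 residual SDs higher, turned negative under both. After quantile normalization 11 genes of the list passed, 2 of them higher, so the list as a whole has no settled direction.

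Of the calcineurin list 4 genes were higher and 2 lower of 17. Calm2, a calmodulin gene, rose by 0.29 (limma adjusted p = 4.88e-05), and Ppp3cb, a catalytic subunit of calcineurin, fell by 0.18 (limma adjusted p = 0.00497), both also under the 2 rescalings. Cabin1 and Rcan1 were 3.31 and 2.03 residual SDs higher and turned negative under both. Among 11 alpha-arrestins, arrestins and partner ligases 3 were higher and 1 lower. Txnip, an alpha-arrestin that binds thioredoxin, rose by 0.20 (limma adjusted p = 0.00187), and the ubiquitin ligase Nedd4 fell by 0.15 (limma adjusted p = 0.00115), both under the rescalings too. Wwp2 and Arrb2, at 2.19 and 1.99 residual SDs, turned negative under both.

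In the ceramide and sphingosine list 5 genes were higher and 3 lower of 33. The 4 with the smallest p were compressed: Cers5 and Plpp1 were 4.04 and 3.69 residual SDs higher, turning negative under both rescalings, and Gba2 and Sgms2 were -3.20 and -2.44. The SPRY and SOCS box list had 3 higher and 3 lower of 16, led by Socs7 (-3.18 residual SDs), the adaptor Eloc (2.32), Rnf7 (2.36) and Socs1 (-2.25 residual SDs), all compressed. In the PLEKH family 4 were higher and 3 lower of 23, led by Plekha8 (-3.63), Plekha3 (3.18), Plekha5 itself and Plekha1 (2.85 residual SDs). Rnf7 and Plekha1 turned negative under both rescalings and Plekha3 after quantile normalization. Ier2, at 1.81 residual SDs, was the 1 call of 8 immediate early response genes and turned negative under both, and the Tribbles list had none of 12.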

How the data were processed

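Hypothalamic RNA of 18 rats was measured on biotin-labelled 3′ expression arrays from 500 ng of total RNA, per the labels' protocols. The deposited values were read as log2 signals made by the authors, as judged from their range of 5.59 to 14.93; the summarization and normalization methods are not given in the sources used here. Per the labels, controls and stress rats were normalized as one set, and stress and linalool rats as another. Of the 31042 probe sets that are not array controls, 20826 had 1 gene symbol in the platform annotation, which can be old. For each of 14217 genes the probe set used was the one whose mean over the 24 columns was highest. limma 3.58.1 in R 4.3.3 was fitted within each set without a filter, two-sided, with Benjamini-Hochberg adjustment over all genes and a threshold of 0.05; control probe sets were adjusted over the 57. The procedure was tested on simulated data. The number of arrays limits the precision, and signals of different probe sets were not compared.

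The 10 genes, the 9 lists of related genes, the marker lists and the threshold of 0.01 for compressed genes were chosen with earlier results of these data known. The text names the 10 genes with all probe sets, up to 4 genes past the threshold per list and comparison by smallest p, and the 3 genes most like Acer2 and Trib2. Alternatives were quantile normalization, median centring, averaging the probe sets of a gene, every probe set tested, genes below the median level left out, an unmoderated test, eBayes with trend and robust, the replicate number as a block, the exact permutation test, leaving out each array, and, for restraint, controls 4, 5 and 6 left out and a meningeal covariate. Same-numbered arrays did not deviate together in every pair (r of 0.0866 to 0.226 between stress and control, and of -0.11 to 0.194 between linalool and stress), and since r was not over 0.1 in every pair, the numbers were not taken to pair animals. Promoters were searched in the RefSeq table of GRCr8.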

Additional observations from a re-analysis of the deposited data

Results flagged for a closer look

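In 11 of 92 groups of 6 arrays (23 probe sets, 4 groups each), the lowest or highest rat stood apart from the nearest other rat by a share of the group's range above Dixon's critical value of 0.625, which chance alone exceeds in about 5% of groups. These groups share rats and genes. Stress rat 6 was low for Spsb1 on 1379611_at (0.705 of the range beside controls and 0.722 beside linalool rats) and on 1393805_at (0.643 and 0.657). Linalool rat 1 was low for Gpatch4 on 3 probe sets (0.717 on 1382186_a_at, 0.68 on 1382187_at and 0.668 on 1382188_at). For Trib2 on 1388821_at, linalool rat 6 was high (0.717) and stress rat 1 was low in the second set (0.637). Linalool rat 6 was also high for Map3k1 on the compressed 1375673_at (0.706). Control 6 was low for Rcan2 on 1374235_at (0.633).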

How the results depend on the processing

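Of the 10 genes, 10 passed after restraint with quantile normalization and median centring, 9 with every probe set, with an unmoderated test and with trend and robust, 7 with probe sets averaged, 2 with the replicate block (Spsb1 and Trib2), none without controls 4, 5 and 6 or with the meningeal covariate, and 5 to 10 with 1 array left out. Their direction could not turn when arrays were left out, since the groups do not overlap. Map3k1 could not be included where genes below the median level were dropped. The number of genes past the threshold after restraint was 101, and it was 55 with quantile normalization, 62 with median centring, 172 with every probe set, 9 with the replicate block, 2 without controls 4, 5 and 6 and 0 with the meningeal covariate (limma), and 26 to 133 with 1 array left out. With linalool 4229 genes passed, 67.4% of them higher. Quantile normalization gave 4941, 20% of them higher; median centring gave 1316, every probe set 7763, the replicate block 3254 and leaving out 1 array 3548 to 4187. Of the 10 genes, 3 passed with linalool, 1 with median centring and 1 with the probe sets of a gene averaged (Plekha5 in both), 2 with the replicate block (Plekha5 and Rcan2) and 1 to 3 with 1 array left out. Only Plekha5 passed without stress rat 4, 5 or 6 or linalool rat 2 or 5. Spsb1 reversed to -0.0188 with quantile normalization and -0.00426 with median centring. The control probe sets past the threshold numbered 27, 53 with median centring and 22 to 32 with 1 array left out. In 2 of 6 cases a stress array correlated best with the control of its own number. The causes of these shifts were not tested.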
